A study of Mus musculus with 24 samples.

Results

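The report concerns 41 mouse genes of DNA replication and S-phase, matched by symbol from a list of the pathway that was drawn up with earlier results of these data known, out of 54429 gene symbols in the count table. All 41 were found in the table, and all 41 were among the 12797 genes that passed the filter on low counts. RNA was sequenced from macrophages grown from the bone marrow of C57BL/6N mice lacking MAPKAP kinase-2 (MK2, gene Mapkapk2; KO) or with MK2 intact (WT). The 4 groups, of 6 libraries each, were KO given interleukin-4 (KO M2), KO left unstimulated (KO M0), WT given interleukin-4 (WT M2) and WT left unstimulated (WT M0). In all 4 groups, marrow from leg bones was grown with the growth factor M-CSF at 10 ng/ml and the cells were detached and replated on day 7. M2 cells received IL-4 at 10 ng/ml, M0 cells received none, and both were harvested after 24 h. The sex and age of the mice, the allele used to remove MK2 and whether the libraries of a group came from separate animals are not stated in the labels, so the p-values speak of spread among libraries that may be technical.

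A cell copies its DNA once per division. In the preceding G1 phase the origin recognition complex, with Cdc6 and Cdt1, loads rings of Mcm proteins onto origins, and in S phase Cdc45 and the GINS complex turn each ring into a working helicase, behind which primase, polymerases, the sliding clamp PCNA and DNA ligase build the new strands. Transcription of many of these genes is driven by E2F factors as cells commit to division, so their mRNA is widely read as a sign of cycling cells. Bone marrow macrophages divide in response to M-CSF, and IL-4 is known to slow that division in culture while driving division of resident macrophages in some tissues. In RNA from a whole culture, fewer cycling cells and less mRNA per cell cannot be told apart, here and in every result that follows.

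Total counts ranged from 7893809 to 13492507 per library. Mapkapk2 checks the labels. It had 47.8, 54.0 and 60.7 CPM (counts scaled to library size by TMM) as the lowest, median and highest library of KO M2, and 54.7, 58.7 and 63.4 CPM in KO M0, against 113, 116 and 139 CPM in WT M2 and 100.3, 117 and 138 CPM in WT M0. Every KO library was below every WT library, with transcript still present in KO, and the labels do not name the part of the gene that was removed. All 8 macrophage markers (Adgre1, Csf1r, Cd68, Itgam, Mertk, Fcgr1, Lyz2 and Mpeg1) were detected in every group, with a summed level of 15714 to 24558 CPM per library. The 18 stromal and fibroblast markers summed to 13.3 to 38.9 CPM in KO libraries and to 162 to 259 CPM in WT libraries, with 16 of the 18 genes passing the count filter and Lum at 0 in KO M0. Over all libraries, 9 neutrophil markers summed to 79.3 to 277 CPM, 7 erythroid and megakaryocyte markers to 77.2 to 175 CPM, 8 T and NK cell markers to 12.9 to 44.0 CPM, 5 progenitor markers to 5.10 to 10.6 CPM and 6 B cell markers to 0.711 to 4.64 CPM. Library numbers in the labels divide the replicates: replicates 1 to 3 and replicates 4 to 6 carry separate runs of numbers, and 3 libraries (KO M2 replicate 2, WT M2 replicate 2 and WT M0 replicate 3) are numbered apart from both. The labels do not say what the numbers stand for.

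Promoters of these genes are shown because E2F control is what the group is best known for. RefSeq promoter windows on GRCm38.p6 (250 bases before to 50 after the transcript start) were matched by symbol for 36 of the 41 genes, leaving out Mcm4, Pole, Gins1, Gins2 and Ccne2. Each window was searched on both strands for the 4 E2F octamers TTTCCCGC, TTTGGCGC, TTTGCCGC and TTTCGCGC, for CCAAT, bound by NF-Y, and for TTTGAA, the CHR motif of mitotic promoters. Motifs can share bases with each other, as a pair of octamers on opposite strands do in Mcm5 and in Mcm6. At least 1 octamer was found in 14 of the 36 genes (38.9%), against 2.61% of the 27025 symbols in the promoter table and 4.72% of the 9355 among them that passed the count filter. CCAAT was found in 20 of the 36 (55.6%), against 41.1% of all symbols and 43.3% of those that passed the filter. TTTGAA was found in 3 of the 36 (8.33%), against 20.2% of all symbols and 14.7% of those that passed. The promoters of 6 genes follow, each read 5′ to 3′ on the gene's strand from 170 bases before the RefSeq start to the base before it, with octamers and CCAAT boxes (ATTGG where reversed) in capitals. They are Mcm5 (plus strand, chr8:75109339-75109508), Mcm6 (minus strand, chr1:128359706-128359875), Mcm7 (minus strand, chr5:138171884-138172053), Cdc6 (plus strand, chr11:98907981-98908150), Pcna (minus strand, chr2:132253181-132253350) and Dut (plus strand, chr2:125247345-125247514). The first 4 genes fell with IL-4 in both genotypes, Pcna passed the test in neither, and Dut rose in both. These 6 are examples and do not stand for the rest. Cdt1 and Rfc3 have an octamer in their windows and passed in neither genotype, and Mybl2, Rrm2, Tk1 and Prim1 have none and fell in both.
Mcm5: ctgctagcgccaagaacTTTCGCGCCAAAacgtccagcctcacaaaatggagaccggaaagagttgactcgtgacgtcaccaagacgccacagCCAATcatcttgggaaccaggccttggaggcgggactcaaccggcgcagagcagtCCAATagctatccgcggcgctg
Mcm6: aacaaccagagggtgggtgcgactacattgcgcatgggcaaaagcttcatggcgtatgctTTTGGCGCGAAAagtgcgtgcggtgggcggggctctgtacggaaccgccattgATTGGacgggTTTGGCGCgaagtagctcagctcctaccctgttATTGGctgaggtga
Mcm7: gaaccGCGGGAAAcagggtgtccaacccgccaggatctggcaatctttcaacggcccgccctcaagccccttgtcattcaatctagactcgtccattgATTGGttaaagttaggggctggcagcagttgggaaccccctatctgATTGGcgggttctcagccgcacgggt
Cdc6: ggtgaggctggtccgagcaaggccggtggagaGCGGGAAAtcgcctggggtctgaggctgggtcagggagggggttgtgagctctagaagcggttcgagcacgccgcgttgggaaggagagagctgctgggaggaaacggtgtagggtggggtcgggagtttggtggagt
Pcna: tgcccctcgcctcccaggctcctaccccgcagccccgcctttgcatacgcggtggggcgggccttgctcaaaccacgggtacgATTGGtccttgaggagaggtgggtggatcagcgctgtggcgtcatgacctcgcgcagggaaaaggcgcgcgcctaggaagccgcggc
Dut: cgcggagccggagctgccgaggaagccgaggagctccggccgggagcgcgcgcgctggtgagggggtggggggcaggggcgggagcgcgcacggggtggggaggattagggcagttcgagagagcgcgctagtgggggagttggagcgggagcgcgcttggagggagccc
Mcm5 and Mcm6 each hold a pair of overlapping octamers, and Mcm6 a further one closer to its start. Mcm7 and Cdc6 hold 1 octamer each in the printed stretch. The printed stretches of Pcna and Dut hold none, nor do their full windows. The gene annotation starts Dut at 125247190, before its printed stretch, and Pcna at 132253314, within its printed stretch. The stretches of Mcm7 and Cdc6 also lie inside the genes as annotated. A lack of octamers thus refers to these windows alone. Of the 14 genes with an octamer, 12 fell with IL-4 in KO and 10 in WT, and of the 22 with a window but none, 16 fell in KO and 12 in WT. The median log2 fold changes were -0.69 with and -0.62 without an octamer in KO, and -0.52 and -0.47 in WT. A match is a description of the letters and no test was made on it.

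IL-4 was followed by lower mRNA of most replication genes in both genotypes. The summed level of the 40 genes other than Pcna, which alone made up 31.6% to 46.4% of the total, was 745, 808 and 1016 CPM as the lowest, median and highest library of KO M2 and 1050.1, 1262 and 1544 CPM in KO M0, so that these groups did not overlap. The same sum was 665, 814 and 924 CPM in WT M2 and 824, 1107 and 1263 CPM in WT M0, where the upper part of the M2 range overlapped the lower part of the M0 range. In KO, 32 of the 41 genes fell, 1 rose and 8 did not pass the test, by edgeR's quasi-likelihood test at an adjusted p below 0.05. Among all 12797 genes tested, 11.4% fell and 12.2% rose in KO. In WT, 24 of the 41 fell, 2 rose and 15 did not pass, against 7.95% of all genes that fell and 8.49% that rose. The median log2 fold change over the 41 was -0.64 in KO and -0.48 in WT, where the median over all genes tested was -0.00 and -0.02. All 24 genes that fell in WT also fell in KO. The log2 fold changes of the 41 genes correlated between KO and WT with Pearson's r = 0.93, given as a description across genes that share the same libraries.

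**Figure D1:**
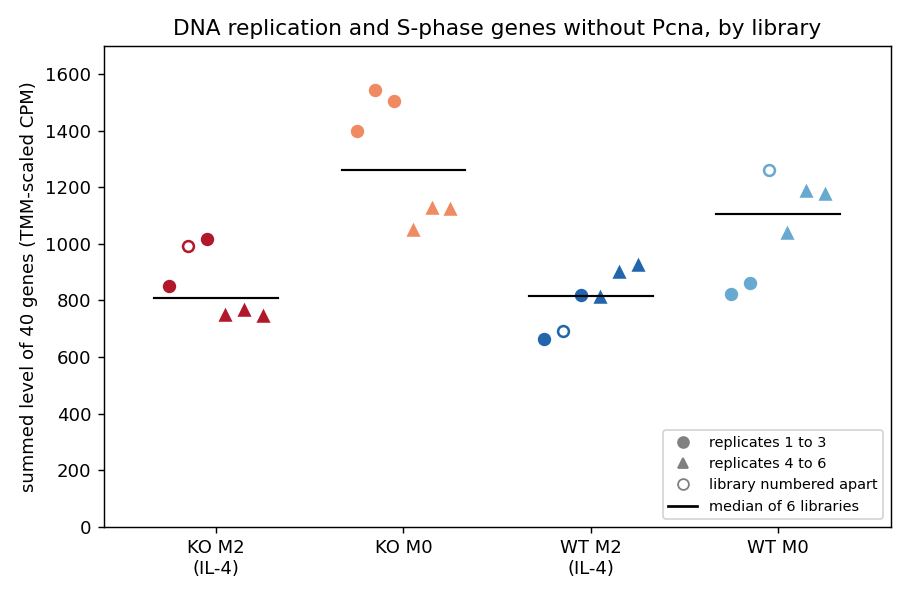
Summed level of the 40 replication genes other than Pcna in each library, in TMM-scaled CPM, by group, with the median of 6 libraries as a line, circles for replicates 1 to 3, triangles for replicates 4 to 6 and open circles for the 3 libraries numbered apart. KO M2 libraries lie between 745 and 1016 CPM, all below KO M0 libraries, and replicates 1 to 3 lie above replicates 4 to 6 in both KO groups.

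**Figure D2:**
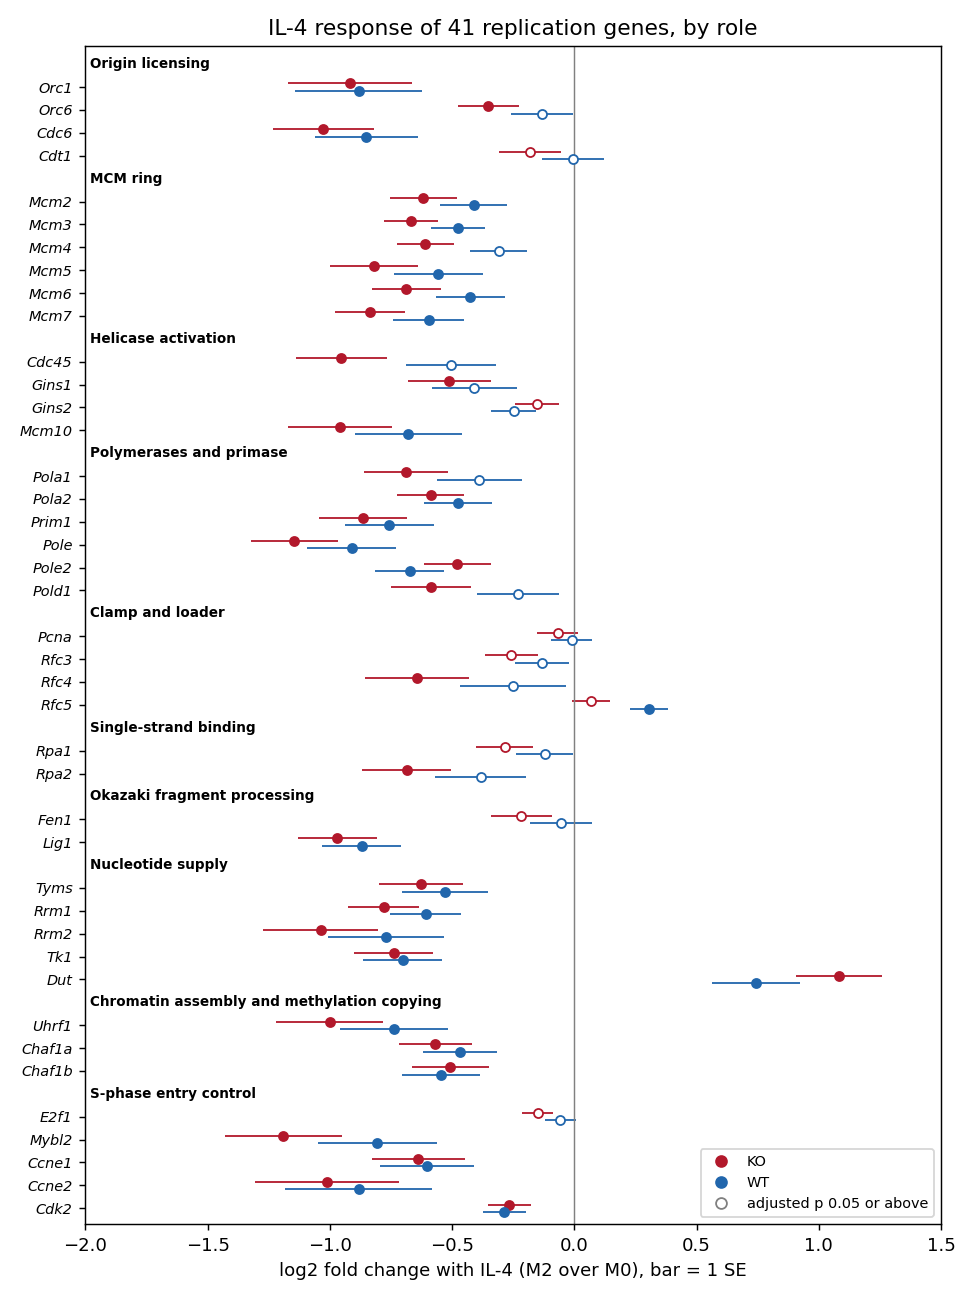
Log2 fold change with IL-4 (M2 over M0) of each of the 41 genes by role, KO in red above WT in blue, with bars of 1 SE and filled points where the adjusted p was below 0.05. Filled points lie left of 0 for 32 genes in KO and 24 in WT, and right of 0 for Dut in both genotypes and Rfc5 in WT.

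Origin licensing genes fell in part. Cdc6, the ATPase that helps load the Mcm rings, had 2.64, 4.93 and 6.58 CPM as the lowest, median and highest library of KO M2, against 7.10, 10.1 and 13.4 CPM in KO M0. It had 2.67, 4.40 and 5.29 CPM in WT M2, against 5.77, 7.99 and 9.54 CPM in WT M0. In both genotypes every M2 library was below every M0 library. Cdc6 fell by 1.03 on the log2 scale in KO (SE 0.21, adjusted p = 0.000492) and by 0.85 in WT (SE 0.21, adjusted p = 0.00570). Orc1, the largest subunit of the origin recognition complex, fell in both (log2 fold change -0.92 in KO and -0.88 in WT), on low counts of 10 to 46 per library. Orc6, another subunit of that complex, passed the test in KO alone (-0.35, against -0.13 in WT); its exons overlap those of Vps35 on the other strand, whose log2 fold change was 0.08 in KO and 0.07 in WT. Cdt1, the loading partner of Cdc6 whose protein is destroyed in S phase, passed in neither genotype. It had 30.8, 33.3 and 42.4 CPM in KO M2 and 36.1, 39.2 and 41.1 CPM in KO M0, and 24.5, 31.0 and 34.4 CPM in WT M2 and 18.4, 31.0 and 41.7 CPM in WT M0, so the groups overlapped (log2 fold change -0.18 in KO and -0.01 in WT).

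The 6 subunits of the Mcm ring, Mcm2 to Mcm7, all fell in KO, by 0.61 to 0.83 on the log2 scale, and 5 of the 6 fell in WT, where the log2 fold changes ran from -0.60 to -0.31 with Mcm4 as the subunit that did not pass (adjusted p = 0.0700). For all 6 subunits, every KO M2 library lay below every KO M0 library, a pattern shown in KO by 16 of the 41 genes and by 5.82% of all genes tested. Mcm6 was the most abundant subunit per length. It had 74.2, 85.6 and 115 CPM in KO M2, against 116, 145 and 187 CPM in KO M0. It had 67.4, 84.8 and 92.3 CPM in WT M2, against 81.7, 113 and 129.6 CPM in WT M0, and these 2 groups overlapped. Mcm3 had the smallest adjusted p of the 6, with 33.01, 36.2 and 47.4 CPM in KO M2 against 51.3, 60.2 and 73.0 CPM in KO M0 (log2 fold change -0.67, SE 0.11, adjusted p = 4.88e-05). In WT it had 32.8, 36.5 and 44.5 CPM in M2, against 42.5, 54.3 and 58.7 CPM in M0 (log2 fold change -0.48, SE 0.11, adjusted p = 0.00318). The remaining subunits gave the same order of groups in KO. Mcm2 had 25.7, 30.3 and 37.1 CPM in KO M2 and 39.4, 46.0 and 56.8 CPM in KO M0, then 24.7, 29.6 and 34.8 CPM in WT M2 and 28.4, 40.0 and 50.3 CPM in WT M0. Mcm4 had 38.0, 40.8 and 50.5 CPM in KO M2 and 54.5, 63.1 and 80.9 CPM in KO M0, then 33.4, 44.4 and 49.9 CPM in WT M2 and 43.0, 54.3 and 60.5 CPM in WT M0. For both, WT M2 and WT M0 overlapped where the KO groups did not. Mcm5 had 28.1, 28.4 and 45.2 CPM in KO M2 and 47.9, 60.1 and 71.7 CPM in KO M0, then 21.8, 31.6 and 36.5 CPM in WT M2 and 28.4, 46.3 and 61.7 CPM in WT M0. Mcm7 had 19.7, 22.9 and 29.9 CPM in KO M2 and 34.7, 43.0 and 53.3 CPM in KO M0, then 19.1, 23.7 and 27.4 CPM in WT M2 and 21.8, 35.7 and 46.4 CPM in WT M0. In WT M0 the lowest Mcm5 and Mcm7 libraries were both replicate 1 and the highest both replicate 3.

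Of the 4 genes that activate the helicase, 3 fell in KO and 1 in WT. Cdc45, which joins the Mcm ring and GINS in the working helicase, had 3.39, 5.42 and 6.19 CPM in KO M2, against 8.07, 9.61 and 13.1 CPM in KO M0, with no overlap (log2 fold change -0.95, SE 0.19, adjusted p = 0.000354). In WT it had 4.02, 6.52 and 7.12 CPM in M2, against 5.42, 8.33 and 10.7 CPM in M0, and did not pass (log2 fold change -0.51, SE 0.19, adjusted p = 0.0637). Mcm10, needed to start unwinding, fell in both (-0.96 in KO and -0.68 in WT). The GINS subunit Gins1 fell in KO (-0.51) and had -0.41 in WT without passing. Gins2, another GINS subunit, passed in neither. It had 23.2, 25.1 and 31.4 CPM in KO M2 and 24.3, 29.0 and 33.1 CPM in KO M0, and 18.19, 23.2 and 24.8 CPM in WT M2 and 22.2, 27.3 and 30.6 CPM in WT M0. Its log2 fold changes were -0.15 in KO and -0.25 in WT, with overlapping groups.

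All 6 polymerase and primase genes fell in KO, and 4 of the 6 fell in WT. Pole, the catalytic subunit of the leading strand polymerase epsilon, had the second largest fall of the 41 in KO and the largest in WT. It had 8.61, 9.78 and 13.4 CPM in KO M2, against 16.4, 23.6 and 29.5 CPM in KO M0 (log2 fold change -1.14, SE 0.18, adjusted p = 2.42e-05). It had 5.80, 9.17 and 11.6 CPM in WT M2, against 12.4, 16.9 and 20.5 CPM in WT M0 (log2 fold change -0.91, SE 0.18, adjusted p = 0.000831). Neither pair of groups overlapped. Pole2, the second subunit of the same enzyme, fell by 0.48 in KO and 0.67 in WT on the log2 scale. Prim1, which makes the RNA primers, fell by 0.86 in KO and 0.76 in WT on the log2 scale. Of the primase partner polymerase alpha, the subunit Pola2 fell in both (-0.59 in KO and -0.48 in WT), and the catalytic subunit Pola1 fell in KO (-0.69) and had -0.39 in WT without passing. Pold1, the catalytic subunit of the lagging strand polymerase delta, fell in KO (-0.59) and had -0.23 in WT without passing.

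Of the 4 genes of the clamp and its loader, 1 fell in KO and 0 fell in WT. In WT edgeR's test gave an unadjusted p below 0.05 to 1 of the 4, Rfc5, against 28.7% of all genes. Pcna, the clamp that holds polymerases on DNA and also serves DNA repair, was the most abundant of the 41 per length. It had 616, 663 and 772 CPM in KO M2 and 655, 704 and 787 CPM in KO M0, and 505, 598 and 669 CPM in WT M2 and 462, 587 and 695 CPM in WT M0. The M2 and M0 ranges overlapped nearly wholly in both genotypes, with log2 fold changes of -0.07 in KO (SE 0.08, adjusted p = 0.642) and -0.01 in WT (SE 0.08, adjusted p = 0.952). Its approximate 95% intervals, -0.23 to 0.10 in KO and -0.18 to 0.16 in WT, do not reach the log2 fold change of any Mcm subunit in the same genotype. That comparison leaves out the error of the Mcm values, and a difference between Pcna and the Mcm subunits was not tested. Of the loader subunits, Rfc4 fell in KO (-0.64), against -0.25 in WT without passing, and Rfc3 passed in neither. Rfc3 had 7.397, 9.23 and 10.6 CPM in KO M2 and 9.30, 11.1 and 11.9 CPM in KO M0, and 7.03, 8.54 and 10.1 CPM in WT M2 and 7.91, 9.30 and 11.3 CPM in WT M0. Rfc5, also a loader subunit, rose in WT. It had 24.7, 30.0 and 31.1 CPM in WT M2, against 22.0, 23.4 and 24.4 CPM in WT M0, with no overlap, which 4.75% of all genes also showed in that direction (log2 fold change 0.31, SE 0.08, adjusted p = 0.00742). In KO it had 22.2, 25.7 and 29.9 CPM in M2, against 21.1, 24.97 and 27.4 CPM in M0, and did not pass (log2 fold change 0.07, adjusted p = 0.613). Exons of Rfc5 overlap those of Wsb2 on the other strand, a gene with a mean of 201 CPM that rose in both genotypes (log2 fold change 0.68 in KO and 0.59 in WT), and the labels do not say if counting used strand, so reads of the pair cannot be told apart. The difference between the KO and WT responses of Rfc5 was -0.24 and did not pass.

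Rpa1 and Rpa2 encode the proteins that coat single-stranded DNA. Rpa2 fell in KO, with 6.25, 10.1 and 15.4 CPM in M2 against 14.8, 16.3 and 20.7 CPM in M0 (log2 fold change -0.69, SE 0.18, adjusted p = 0.00632). In WT it had 7.14, 9.96 and 11.96 CPM in M2, against 8.66, 12.1 and 17.6 CPM in M0, and did not pass (-0.38). Rpa1, which also acts in repair, passed in neither. It had 49.0, 59.2 and 66.0 CPM in KO M2 and 59.2, 72.2 and 86.3 CPM in KO M0, and 53.3, 58.6 and 63.7 CPM in WT M2 and 42.3, 64.6 and 78.3 CPM in WT M0, with log2 fold changes of -0.29 in KO and -0.12 in WT. The genes that finish Okazaki fragments, the short pieces of the lagging strand, split in the same way. Lig1, the ligase that seals them, had 16.8, 20.4 and 27.7 CPM in KO M2, against 30.0, 40.3 and 55.0 CPM in KO M0 (log2 fold change -0.97, SE 0.16, adjusted p = 6.10e-05). It had 14.2, 20.7 and 24.9 CPM in WT M2, against 28.4, 37.3 and 38.8 CPM in WT M0 (log2 fold change -0.87, SE 0.16, adjusted p = 0.000400). Neither pair of Lig1 groups overlapped. Fen1, the flap nuclease that works beside it, passed in neither. It had 28.7, 32.5 and 35.4 CPM in KO M2 and 34.3, 36.5 and 41.8 CPM in KO M0, and 24.99, 30.04 and 33.01 CPM in WT M2 and 18.20, 29.6 and 42.2 CPM in WT M0 (log2 fold change -0.22 in KO and -0.05 in WT).

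Nucleotide supply held the one gene that rose in both genotypes. Tyms, Tk1, Rrm1 and Rrm2, which make thymidylate and reduce ribonucleotides to deoxyribonucleotides, fell in both, by 0.63 to 1.04 on the log2 scale in KO and by 0.53 to 0.77 in WT. Dut, which hydrolyses dUTP and so keeps uracil out of DNA while supplying the precursor of thymidylate, moved the other way. In KO M2 replicates 1 to 6 it had 27.8, 28.6, 20.4, 14.9, 15.8 and 20.3 CPM, and in KO M0 it had 11.6, 11.6, 11.6, 8.76, 9.35 and 7.58 CPM. In WT M2 replicates 1 to 6 it had 15.1, 14.3, 15.7, 10.1, 14.2 and 15.4 CPM, and in WT M0 it had 6.02, 5.77, 11.96, 7.67, 9.50 and 9.21 CPM. The KO groups did not overlap, which 8.17% of all genes also showed upward, and in WT the lowest M2 library lay below the highest M0 library. Dut rose by a log2 fold change of 1.08 in KO (SE 0.18, adjusted p = 4.14e-05) and 0.74 in WT (SE 0.18, adjusted p = 0.00473). Across all 14 alternative settings tried for each of the contrasts, Dut stayed higher and past the threshold with IL-4 in both genotypes.

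**Figure D3:**
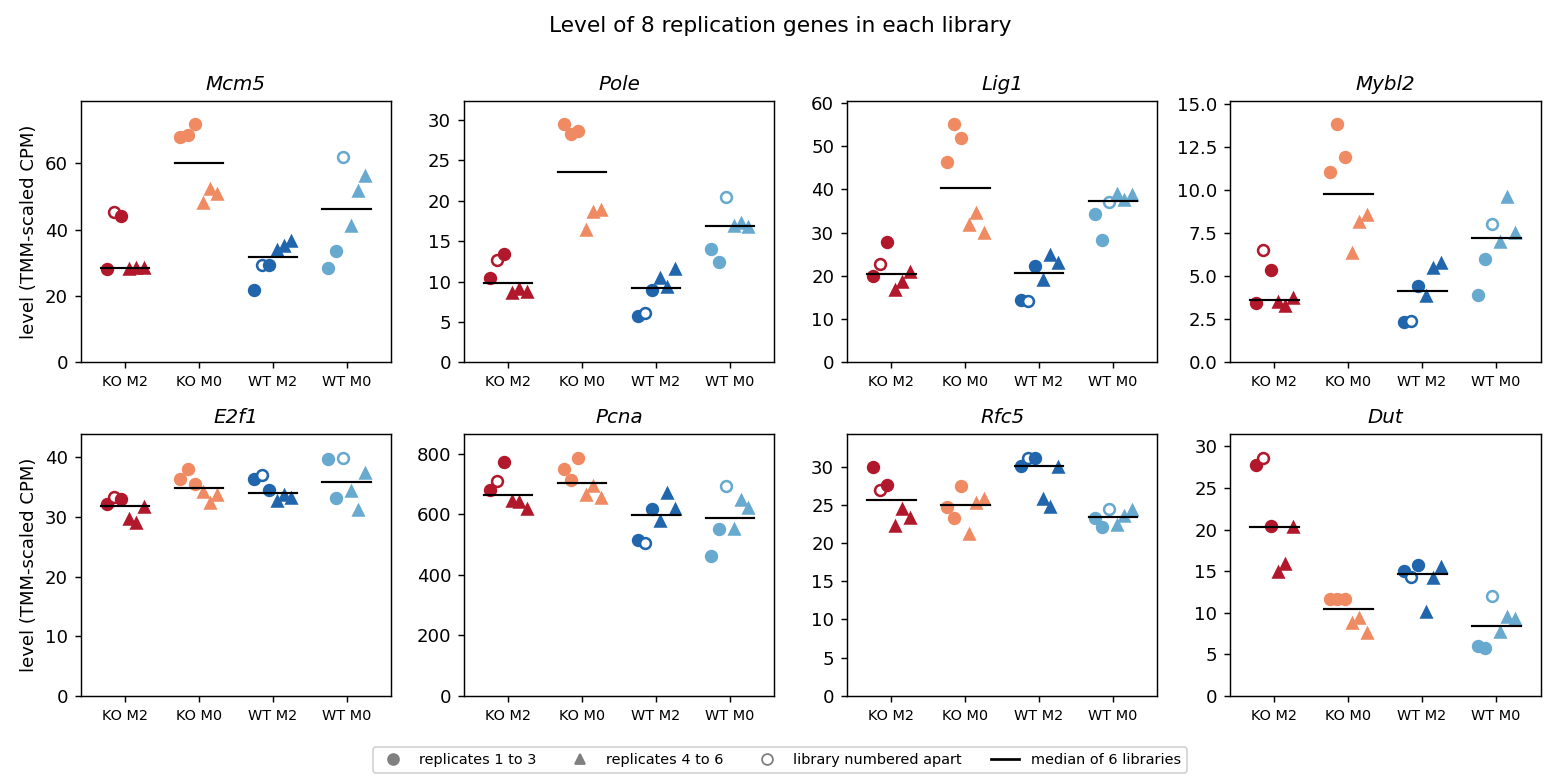
Level of 8 replication genes in each library, in TMM-scaled CPM on axes that start at 0, by group, with circles for replicates 1 to 3, triangles for replicates 4 to 6, open circles for libraries numbered apart and the median as a line. The medians of Mcm5, Pole, Lig1 and Mybl2 lie lower in M2 than in M0, and E2f1 and Pcna overlap between M2 and M0. Rfc5 in WT and Dut in KO lie higher in M2 without overlap, and Dut in WT has a higher median in M2 with overlap.

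The 3 genes that rebuild chromatin and copy its methylation fell in both genotypes. Uhrf1, which recognises half-methylated DNA behind the fork and brings in the methyltransferase, had 17.4, 22.0 and 32.9 CPM in KO M2, against 37.1, 49.5 and 61.5 CPM in KO M0 (log2 fold change -1.001, SE 0.22, adjusted p = 0.00139). It had 14.2, 23.5 and 31.1 CPM in WT M2, against 23.5, 41.003 and 47.8 CPM in WT M0 (log2 fold change -0.74, SE 0.22, adjusted p = 0.0233). KO groups of Uhrf1 did not overlap and WT groups did. The histone chaperone subunits Chaf1a and Chaf1b fell by 0.57 and 0.51 on the log2 scale in KO, and by 0.47 and 0.55 in WT.

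Among the genes that control entry into S phase, 4 of 5 fell in both genotypes and E2f1 passed in neither. Mybl2, a transcription factor made late in G1 that acts on cell cycle genes, had the largest fall of the 41 in KO. It had 3.25, 3.62 and 6.50 CPM in KO M2, against 6.32, 9.78 and 13.8 CPM in KO M0 (log2 fold change -1.19, SE 0.24, adjusted p = 0.000504). It had 2.34, 4.13 and 5.79 CPM in WT M2, against 3.89, 7.24 and 9.60 CPM in WT M0 (log2 fold change -0.81, SE 0.24, adjusted p = 0.0234). In both genotypes the highest M2 library lay above the lowest M0 library. Of the E-type cyclins, which drive Cdk2 at the start of S phase, Ccne2 had 8.48, 10.6 and 19.8 CPM in KO M2 and 16.6, 23.2 and 35.2 CPM in KO M0, and 3.24, 11.97 and 17.3 CPM in WT M2 and 12.02, 20.4 and 26.9 CPM in WT M0. It fell by 1.01 on the log2 scale in KO and 0.88 in WT, with overlapping groups in both. Ccne1 had 4.93, 6.04 and 8.57 CPM in KO M2 and 7.46, 9.71 and 13.4 CPM in KO M0, and 4.35, 5.76 and 8.59 CPM in WT M2 and 6.13, 9.58 and 12.4 CPM in WT M0, and fell by 0.64 in KO and 0.60 in WT on the log2 scale. Cdk2 itself fell by 0.27 in KO and 0.29 in WT on the log2 scale. E2f1, the best known activating E2F factor, had 29.0, 31.9 and 33.4 CPM in KO M2 and 32.3, 34.9 and 38.0 CPM in KO M0, and 32.8, 34.0 and 37.1 CPM in WT M2 and 31.2, 35.8 and 39.9 CPM in WT M0. Its groups overlapped, with log2 fold changes of -0.15 in KO (SE 0.06, adjusted p = 0.0906) and -0.06 in WT (SE 0.06, adjusted p = 0.597).

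In total 7 genes passed the test in neither genotype: Cdt1, Gins2, Pcna, Rfc3, Rpa1, Fen1 and E2f1. Their log2 fold changes were all below 0, from -0.29 to -0.07 in KO and from -0.25 to -0.01 in WT. Not all 7 stayed below the bar in the 14 alternative settings. E2f1 and Rpa1 each fell past the threshold in KO in 3 of the 14, and Fen1 and Cdt1 each in 1. Gins2 did so in WT in 3, and Pcna and Rfc3 passed in 0 in either genotype. In WT, 5 of the 41 genes (Cdc6, Lig1, Pole, Pole2 and Rrm1) had every M2 library below every M0 library, against 3.41% of all genes. The count of falls in WT was less stable than in KO. Without the 3 libraries numbered apart, 2 of which are WT, 11 of the 41 fell in WT, against 8% of all genes, and 33 fell in KO, against 12.8%. In replicates 1 to 3 alone 19 fell in KO, against 5.25% of all genes, and 4 in WT, against 2.57%. In replicates 4 to 6 alone 30 fell in KO, against 10.7% of all genes, and 22 in WT, against 6.02%. The 4 genes that fell in WT in replicates 1 to 3 were Cdc6, Lig1, Pole and Rrm1. The difference between the 2 sets of replicates, tested as an interaction in 1 fit chosen after seeing the data, passed for 0 of the 41 genes in either genotype by edgeR's test, with 0 of the 41 at an unadjusted p below 0.05 in both, where 6.04% of all genes in KO and 2.81% in WT had such a p and 0.0156% of all genes passed in WT. Exons of 16 of the 41 genes overlap an exon of another annotated gene, and reads there cannot be assigned to either with certainty. Besides Orc6 and Rfc5, these include Rfc4, Cdc45, Fen1 and Gins2. Their partners on the other strand, Eif4a2, Ufd1, Tmem258 and Gse1, had means of 149, 41.7, 27.3 and 24.0 CPM. The log2 fold changes of these partners in KO were -0.22, 0.005, 0.30 and 0.19, without passing. The summed macrophage markers ranged over 15714 to 18202 CPM in KO M2 and 16473 to 20206 CPM in KO M0, and 18055 to 22219 CPM in WT M2 and 19344 to 24558 CPM in WT M0. The 8 T and NK cell markers, of which 1 passed the count filter and Ncr1 was at 0 in KO M2, summed to 12.9 to 23.1 CPM in KO M2 and 21.3 to 32.0 CPM in KO M0, and to 13.2 to 31.8 CPM in WT M2 and 16.8 to 44.0 CPM in WT M0. The part of either marker list in the result was not tested.

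Of 57 further genes on a list of the pathway, 44 had a log2 fold change below 0 with IL-4 in each genotype and 13 above 0. In KO 30 fell, 2 rose and 25 did not pass, where 11.4% of all genes fell and 12.2% rose. In WT 15 fell, 1 rose and 41 did not pass, where 7.95% of all genes fell and 8.49% rose. The median log2 fold changes of the 57 were -0.28 in KO and -0.22 in WT. The largest falls in KO were those of Recql4 (-1.36) and Ticrr (-1.20), which help fire origins, Clspn (-1.19), a mediator of the replication checkpoint, Ccna2 (-1.17), the cyclin of S phase, and the repressors E2f7 (-1.07) and E2f8 (-1.003). In WT the largest falls included those of Clspn (-0.96), E2f7 (-0.90), the activating factor E2f2 (-0.87), Ccna2 (-0.82) and the checkpoint kinase Chek1 (-0.78). Samhd1, which breaks down deoxyribonucleotides, rose in both (0.52 in KO and 0.32 in WT), and the small polymerase delta subunit Pold4 rose in KO (0.39). Of 24 mitotic genes set beside them, 24 fell in KO and 21 in WT, against 11.4% and 7.95% of all genes. Their median log2 fold changes were -1.04 and -0.85, further from 0 than the medians of the replication genes. The 21 falls in WT became 9 without the 3 libraries numbered apart (8% of all genes fell) and 12 in replicates 1 to 3 alone (2.57%).

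The comparison of KO with WT asks whether loss of MK2 alters these genes. In unstimulated cells, pooled over all 6 replicates, 0 of the 41 genes passed by edgeR's quasi-likelihood test, where 1.1% of all genes were higher and 3.42% lower in KO. At an unadjusted p below 0.05 there were 16 of the 41, against 15.1% of all genes. DESeq2 called 1, Pcna, and limma on log2(GETMM + 1) called 0. The log2 fold change was above 0 for 40 of the 41, with a median of 0.27 (all genes -0.01) and a range of -0.04 for E2f1 to 0.51 for Pole. With IL-4, 1 of the 41 passed, Dut (log2 fold change 0.59, SE 0.17, adjusted p = 0.0435), where 1.51% of all genes were higher and 3.09% lower. The KO M2 and WT M2 values of Dut, given above, overlapped. For 0 of the 41 genes did all 6 KO libraries lie to one side of all 6 WT libraries, where 1.09% of all genes lay higher and 2.54% lower in KO with IL-4, and 0.977% higher and 2.5% lower without it. Without the 3 libraries numbered apart, Dut no longer passed (log2 fold change 0.49, adjusted p = 0.113). The median over the 41 with IL-4 was 0.12, and 6 had an unadjusted p below 0.05, against 13.2% of all genes. Of the 57 other replication genes, 0 passed without IL-4 by the same test (11 at an unadjusted p below 0.05), and 1 with IL-4, the nuclease Dna2 (0.37, adjusted p = 0.0224).

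The IL-4 responses of KO and WT were compared gene by gene. The difference between them passed for 0 of the 41 genes by edgeR's test, 0 by DESeq2 and 0 by limma, and for 0 of all 12797 genes by edgeR's test. At an unadjusted p below 0.05 there was 1 of the 41, Rfc5, against 3.05% of all genes. The response was lower in KO than in WT for 36 of the 41, with a median difference of -0.17 on the log2 scale and a range of -0.45 for Cdc45 to 0.34 for Dut. Without the 3 libraries numbered apart the median difference was -0.31, and 0 of the 41 passed by edgeR's test, with 7 at an unadjusted p below 0.05, against 6.13% of all genes. At the same unadjusted level there were 1 of the 41 in replicates 1 to 3, against 1.73% of all genes, and 9 in replicates 4 to 6, against 11.8%, with 0 past the adjusted threshold in either set. The larger number of genes past the threshold in KO than in WT is therefore not shown to be a difference between the genotypes.

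In these libraries the genotype difference was not the same in replicates 1 to 3 as in replicates 4 to 6. In unstimulated cells the summed level of the 40 genes other than Pcna was 1398, 1544 and 1506 CPM in KO M0 replicates 1 to 3, against 824, 860.0 and 1263 CPM in WT M0 replicates 1 to 3. In replicates 4 to 6 it was 1050.1, 1125 and 1124 CPM in KO M0, against 1039, 1186 and 1175 CPM in WT M0. Each KO library was above each WT library in the first set, and the groups overlapped in the second. The first set is not of 1 run of library numbers. WT M0 replicate 3, at 1263 CPM, and replicate 2 of KO M2 and of WT M2 are the 3 libraries numbered apart. With IL-4 the sum was 851, 991 and 1016 CPM in KO M2 replicates 1 to 3, against 665, 692 and 818 CPM in WT M2, and 747, 765 and 745 CPM in KO M2 replicates 4 to 6, against 811, 899 and 924 CPM in WT M2. KO was thus above WT without overlap in replicates 1 to 3, and below it without overlap in replicates 4 to 6.

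**Figure D4:**
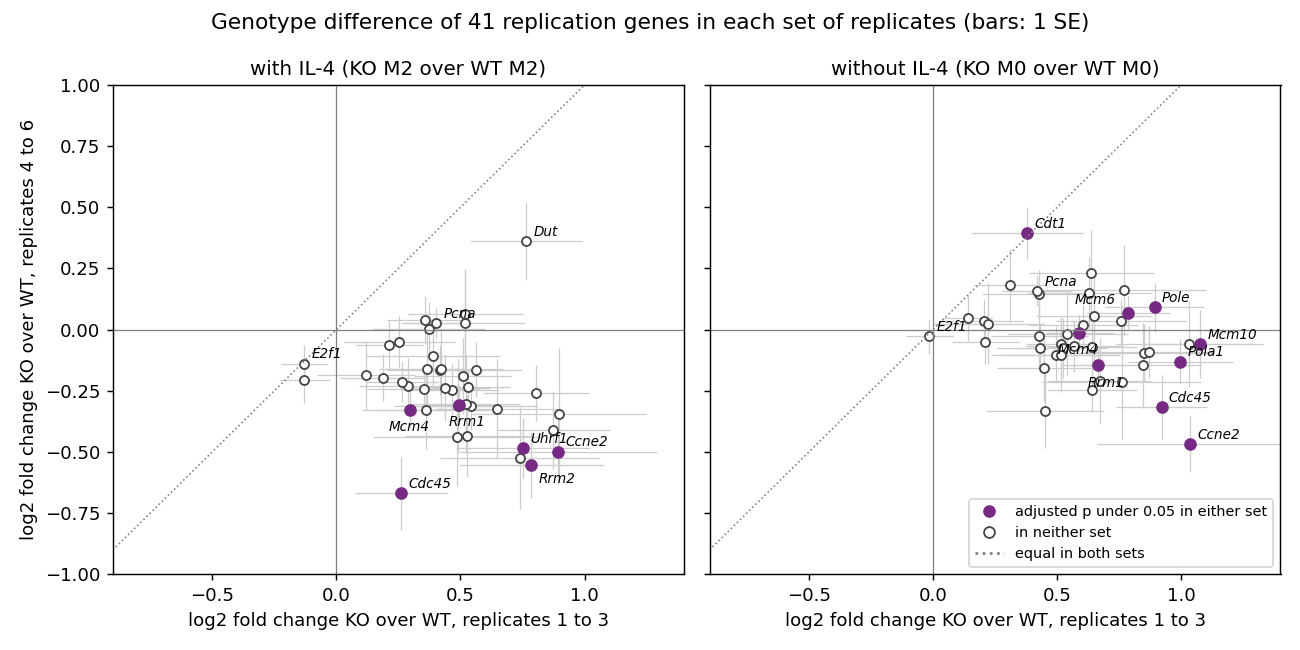
Log2 fold change of KO over WT for each of the 41 genes in replicates 1 to 3 (horizontal axis) and in replicates 4 to 6 (vertical axis), with IL-4 on the left and without on the right, with bars of 1 SE and filled points for genes with an adjusted p below 0.05 in either set. Nearly all points lie right of 0 and below the dotted line of equal values, and Cdc45 lies below 0 for replicates 4 to 6 in both panels.

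Fitted separately, replicates 1 to 3 without IL-4 had 7 of the 41 genes higher in KO and 0 lower (all genes 1.16% and 2.21%): Cdc45 (0.92), Mcm10 (1.08), Mcm4 (0.59), Mcm6 (0.79), Pola1 (1.00), Pole (0.89) and Rrm1 (0.67). Replicates 4 to 6 without IL-4 had 1 higher, Cdt1 (0.39), and 1 lower, Ccne2 (-0.47), where 3.38% of all genes were higher and 4.09% lower. With IL-4, replicates 1 to 3 had 0 of the 41 called by edgeR's test, where 0.6% of all genes were higher and 1.78% lower. There, 20 of the 41 had an unadjusted p below 0.05, against 10.4% of all genes, and the median over the 41 was 0.47. In replicates 4 to 6, 6 of the 41 were lower in KO with IL-4 and 0 higher (all genes 4.59% and 3.66%): Ccne2 (-0.50), Cdc45 (-0.67), Mcm4 (-0.33), Rrm1 (-0.31), Rrm2 (-0.55) and Uhrf1 (-0.48), with a median over the 41 of -0.23. The difference between the sets was tested as an interaction in 1 fit of 8 groups, chosen after seeing the data. The p-values of that fit do not allow for the choice and are no independent support for a difference between the sets. Without IL-4 it passed for 5 of the 41, where 1.81% of all genes passed: Cdc45 (1.22, adjusted p = 0.0114), Lig1 (0.87, adjusted p = 0.0355), Mcm10 (1.12, adjusted p = 0.0352), Pola1 (1.11, adjusted p = 0.0248) and Rrm1 (0.79, adjusted p = 0.0248). With IL-4 it passed for 3 of the 41, where 0.781% of all genes passed: Mcm10 (1.28, adjusted p = 0.0375), Pole (1.06, adjusted p = 0.0378) and Rrm1 (0.80, adjusted p = 0.0364). At an unadjusted p below 0.05 there were 25 of the 41 without IL-4, against 14.2% of all genes, and 28 with it, against 10.4%. Over the 41, the KO over WT log2 fold change was higher in replicates 1 to 3 for 39 genes without IL-4 and for all 41 with it.

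Other measures differed between the sets too. The 24 mitotic genes summed to 1330.4, 1717 and 1599 CPM in KO M0 replicates 1 to 3 and 811, 915 and 879 CPM in KO M0 replicates 4 to 6, against 808, 627 and 1030.1 CPM and 1067, 1015 and 1002 CPM in the same replicates of WT M0. The macrophage marker sum was 16473 to 18498 CPM in KO M0 replicates 1 to 3, against 20377 to 24558 CPM in those of WT M0, and 19764 to 20206 CPM in KO M0 replicates 4 to 6, against 19344 to 20460 CPM in those of WT M0. The stromal marker sum stayed apart in both sets, with 13.3 to 38.9 CPM in KO against 162 to 233 CPM in WT in replicates 1 to 3, and 16.1 to 25.8 CPM against 162 to 259 CPM in replicates 4 to 6. The part of these measures in the genotype difference was not tested, and any effect of how a set was cultured or sequenced and any effect of the animals it came from cannot be told apart.

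Levels per unit of gene length were read from the GETMM values the authors deposited. Averaged over the 24 libraries, Pcna was highest at 1089 GETMM (772 to 1359 in single libraries), then Mcm6 at 64.3, Rrm1 at 53.9 and Rrm2 at 42.2 GETMM. The other Mcm ring subunits lay close together, with Mcm2 at 30.1, Mcm7 at 30.0, Mcm3 at 28.1, Mcm5 at 27.5 and Mcm4 at 24.9 GETMM, and their ranges over libraries overlapped. The lowest were Pole at 4.65, Orc1 at 4.32 and Cdc6 at 3.71 GETMM, and the median of the 41 was 17.6 GETMM.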

How the data were processed

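RNA was sequenced as 40 bp single-end reads from 24 libraries, per the labels' protocols. The submitters' processing notes name the build mm10, the aligner Bowtie2 2.3.4.1, the counter RSEM 1.3.0, CASAVA 2.8.0 and edgeR. They do not say if counting used strand. The authors deposited expected counts per gene, already rounded to whole numbers per the file headers, and GETMM values, a signal that adjusts counts for both transcript length and depth. Counts were analysed with edgeR 4.0.16 in R 4.3.3: filterByExpr with a minimum count of 10, TMM scaling, 1 robust quasi-likelihood fit of the 4 groups without a block, and Benjamini-Hochberg adjustment over all 12797 genes tested, with a threshold of 0.05. CPM values are scaled by TMM, and SE was taken from the F statistic. Alternatives used DESeq2 1.42.0, limma 3.58.1 on log2(GETMM + 1), other filters and scalings, and subsets of libraries. No 2 libraries of a group agreed within sampling noise, with chi-square per degree of freedom of at least 2.68 in 60 pairs.

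The members and lists were chosen with earlier results of these data known. Levels by library are given for the member of each role with the smallest adjusted p with IL-4, members past the threshold in a genotype comparison or in neither IL-4 comparison, and E2f1, Mcm2 to Mcm7, Pcna, Ccne1 and Ccne2. Of the other replication genes, the 6 largest changes past the threshold with IL-4 are named, and all past it elsewhere, except 1 gene that is not reported here. Samhd1 and Pold4 were named after their values were seen. In simulated counts for the IL-4 comparison in WT over 12797 genes, 47% of 100 genes changed by a log2 of 0.5 and 78% of 100 changed by 1 were recovered. Only these genes were changed in the simulation, whereas in the data 1086 genes rose and 1017 fell. The adjusted threshold therefore fell at a smaller unadjusted p in the simulation, and the percentages need not hold for the data.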

Additional observations from a re-analysis of the deposited data

Results flagged for a closer look

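In 3 of 100 groups of 6 libraries, 1 library stood apart from the other 5 by a gap to its neighbour that passed Dixon's critical value, where chance gives about 1 in 20. Gins2 in WT M2 was lowest in replicate 1 at 18.19 CPM, with the others at 22.5 to 24.8 CPM. Dut in WT M2 was lowest in replicate 4 at 10.1 CPM, with the others at 14.2 to 15.7 CPM. Ccne2 in KO M2 was highest in replicate 3 at 19.8 CPM, with the others at 8.48 to 12.6 CPM.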

How the results depend on the processing

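Over 14 alternatives the median log2 fold change of the 41 genes with IL-4 ran from -0.72 to -0.58 in KO and from -0.53 to -0.33 in WT. Over 13 it ran from -0.23 to 0.47 for KO over WT with IL-4 and from -0.06 to 0.61 without, and from -0.31 to -0.15 for the difference of the IL-4 responses. The 32 falls in KO became 19 in replicates 1 to 3. The 24 falls in WT became 15 in a fit of WT alone (6.36% of all genes fell), 9 by limma without a filter (2.02%) and 11 without a count filter (1.89%). They became 4 in replicates 1 to 3 (2.57%) and 11 without the 3 libraries numbered apart (8%). The 2 rises became 1 in replicates 4 to 6 (7.13% of all genes rose). Without IL-4, 0 genes higher in KO became 1 by DESeq2 (0.72% of all genes higher) and 2 with the library set as a term (2.9%). The count was 7 in replicates 1 to 3 (1.16%), 1 in replicates 4 to 6 (3.38%) and 3 (Cdt1, Pcna and Pole) without the libraries numbered apart (2.12%). The 0 lower became 1 in replicates 4 to 6 (4.09% lower). With IL-4, the 1 gene higher, Dut, became 0 in a fit of the 2 groups (1.26% of all genes higher) and without a count filter (0.434%). The count was 0 by limma with a pseudocount of 1 (1.28%) or 0.1 (1.18%) or with no filter (0.394%). It was also 0 in replicates 1 to 3 (0.6%), in replicates 4 to 6 (3.66%) and without the libraries numbered apart (1.76%). The 0 lower became 6 in replicates 4 to 6 (4.59% lower). Over all 41 genes, KO over WT was past the threshold with the opposite sign in replicates 4 to 6 for Ccne2 without IL-4 (-0.47, against 0.28), and with IL-4 for Ccne2 (-0.50, against 0.15), Uhrf1 (-0.48, against 0.12), Rrm1 (-0.31, against 0.10) and Rrm2 (-0.55, against 0.12). The cause was not tested for any of these changes, some of which came with fewer libraries or with more genes tested.

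For the 57 other replication genes the same settings were chosen after seeing the data. The 15 falls in WT (7.95% of all genes fell) became 26 with the culture number as a replicate block (10.3% of all genes). They became 6 by limma without a filter (2.02%), 9 without a count filter (1.89%), 5 in replicates 1 to 3 (2.57%) and 8 without the libraries numbered apart (8%). The 1 rise in WT became 2 with the library set as a term (12.3% of all genes rose). It became 0 by limma without a filter (2.61%) and without the libraries numbered apart (9.05%). The 2 rises in KO became 1 in replicates 1 to 3 (6.21%). Without IL-4, 0 higher in KO became 1 with the CPM filter (1.14% of all genes higher), by DESeq2 (0.72%) and with RLE scaling (1.37%). It also became 1 by limma with a pseudocount of 1 (1.22%) or 0.1 (1.16%) and in replicates 4 to 6 (3.38%). The count was 2 with the library set as a term (2.9%), 7 in replicates 1 to 3 (1.16%) and 2 without the libraries numbered apart (2.12%). The 0 lower became 2 in replicates 4 to 6 (4.09% lower). With IL-4, the 1 higher became 0 in a fit of the 2 groups (1.26% of all genes higher), by limma without a filter (0.394%) and in replicates 1 to 3 (0.6%). It became 2 in replicates 4 to 6 (3.66%) and without the libraries numbered apart (1.76%). The 0 lower became 3 in replicates 4 to 6 (4.59% lower). The difference of responses gave 1 above 0 in replicates 4 to 6 (0.133% of all genes).

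The labels give 1 M0 and 1 M2 library the same culture number and do not say what it marks. Same-culture libraries deviated together with correlations of -0.04 to 0.35 (median 0.13), over 0.1 in 8 of 12 pairs, against 10 of 60 pairs of other numbers in the same genotype (median -0.04), and 13 of 24 libraries correlated best with their own number. Not every pair passed 0.1, the bar for treating numbers as pairs, so the fit has no block, and pairing remains possible. With the culture number as a replicate block 29 of the 41 genes fell in WT with IL-4 (10.3% of all genes). With the replicate number as a replicate block, 2 of the 41 (Cdt1 and Pcna) were higher in KO without IL-4 (1.44% of all genes). Genes of few counts, such as Orc1, limit what could be detected.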
